A study of Mus musculus with 11 samples.

Results

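Open chromatin in esophageal cells that carry an activated Hedgehog pathway but a conditional Sox9 deletion was compared with open chromatin in wild-type cells. The comparison rests on 6 of the 11 ATAC-seq peak lists of the series, 3 per group. Intervals on chromosomes 1 to 19 and X of these 6 lists, merged where they shared at least 1 bp, gave 110656 regions. A region found in all 3 lists of the mutant and in none of the 3 wild-type lists is called opened (5364 regions), and a region found in all 3 wild-type lists and in none of the mutant is called closed (3365 regions). The first group (WT) was wild-type mouse esophagus of strain CD1, sorted for low EpCAM, a surface adhesion protein of epithelial cells. The second (SmoM2-Sox9cKO) had the genotype Krt5-SmoM2-Sox9fl/fl, with no strain in its labels, and its cells passed a gate for high EpCAM. SmoM2 is a constitutively active form of Smoothened, Krt5 names the basal keratin gene that directs it to basal cells, and fl/fl means that both Sox9 copies are flanked by recombination sites. The labels name no Cre line, age or induction time. Lists outside the comparison came from 3 SmoM2 libraries (genotype Krt5-SmoM2, CD1, EpCAM-high, with intact Sox9) and from 2 libraries of embryonic esophagus (Embryo, genotype Krt8YFP, embryonic day 13, sorted on YFP). Genotype and EpCAM gate, and possibly strain, differed together between WT and SmoM2-Sox9cKO, so their effects cannot be told apart. The labels do not say whether the libraries of a group came from separate animals, so the spread between them may be technical.

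In Hedgehog signaling, the ligand relieves Patched from holding back Smoothened, and the Gli transcription factors then switch on target genes that include Ptch1 and Gli1. SmoM2 signals without ligand and drives basal cell carcinoma when expressed in skin. Sox9 is a transcription factor of progenitor cells in hair follicle, foregut and columnar epithelia, and it acts downstream of Hedgehog signaling in several of them. ATAC-seq uses a transposase that cuts accessible DNA, so that promoters and enhancers in use appear as peaks.

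Among 17274 genes with RefSeq promoter sequences searched here (GRCm38.p6), 57 had a start site in an opened region and 29 in a closed region. For 10100 genes a start site lay in a region open in all 6 lists. The 250 bases before the start are shown for 6 genes at which the number of open regions changed and for Ihh, a Hedgehog ligand that was chosen after its values were seen. Kit (chr5:75574737-75574986, plus strand), Tmem26 (chr10:68723496-68723745, plus strand), Cd34 (chr1:194938571-194938820, plus strand), Ifi209 (chr1:173630609-173630858, plus strand) and Ihh (chr1:74951673-74951922, minus strand) overlapped opened regions, those of Cd34, Ihh and Tmem26 in part. Sprr2f (chr3:92364937-92365186, plus strand) and Adamts18 (chr8:113848840-113849089, minus strand) lay within closed regions. Capitals mark matches, on either strand, to the short motifs searched, which are spelled out after the sequences.
Kit: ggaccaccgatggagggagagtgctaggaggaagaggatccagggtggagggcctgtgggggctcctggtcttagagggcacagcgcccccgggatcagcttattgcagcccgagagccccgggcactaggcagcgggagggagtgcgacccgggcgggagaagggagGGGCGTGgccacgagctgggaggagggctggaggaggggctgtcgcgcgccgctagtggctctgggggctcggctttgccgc
Tmem26: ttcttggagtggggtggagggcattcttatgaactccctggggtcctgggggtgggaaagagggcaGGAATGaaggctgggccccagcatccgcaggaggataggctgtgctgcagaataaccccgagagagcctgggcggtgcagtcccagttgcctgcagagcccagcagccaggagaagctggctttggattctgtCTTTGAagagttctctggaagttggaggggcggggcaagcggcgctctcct
Cd34: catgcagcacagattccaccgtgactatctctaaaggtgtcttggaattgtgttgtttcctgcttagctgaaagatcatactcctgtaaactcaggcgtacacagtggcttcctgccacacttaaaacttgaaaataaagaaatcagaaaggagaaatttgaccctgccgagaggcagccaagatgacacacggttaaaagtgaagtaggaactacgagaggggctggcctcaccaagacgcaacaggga
Ifi209: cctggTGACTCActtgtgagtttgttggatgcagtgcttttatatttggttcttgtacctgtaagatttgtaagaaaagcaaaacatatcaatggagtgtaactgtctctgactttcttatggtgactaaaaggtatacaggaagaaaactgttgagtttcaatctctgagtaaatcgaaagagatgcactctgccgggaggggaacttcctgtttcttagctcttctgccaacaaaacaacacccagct
Ihh: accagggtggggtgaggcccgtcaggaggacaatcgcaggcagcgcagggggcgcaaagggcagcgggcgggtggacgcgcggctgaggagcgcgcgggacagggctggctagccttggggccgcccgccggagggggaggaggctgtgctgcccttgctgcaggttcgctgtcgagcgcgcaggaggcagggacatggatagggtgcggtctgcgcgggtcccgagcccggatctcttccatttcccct
Sprr2f: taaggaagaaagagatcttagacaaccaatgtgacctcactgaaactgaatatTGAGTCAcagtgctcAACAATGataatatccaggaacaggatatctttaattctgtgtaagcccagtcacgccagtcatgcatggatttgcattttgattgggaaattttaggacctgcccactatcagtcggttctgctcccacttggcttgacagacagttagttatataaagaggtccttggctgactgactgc
Adamts18: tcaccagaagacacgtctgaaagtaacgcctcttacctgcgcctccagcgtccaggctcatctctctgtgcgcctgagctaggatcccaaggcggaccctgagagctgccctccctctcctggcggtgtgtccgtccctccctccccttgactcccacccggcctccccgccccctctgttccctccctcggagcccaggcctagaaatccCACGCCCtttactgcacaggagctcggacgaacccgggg

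The capitals are a KLF motif in Kit (GGGCGTG, read from -82 to -76 relative to the start) and in Adamts18 (its reverse complement, from -39 to -33). They are TEAD (GGAATG) and LEF/TCF (CTTTGA) in Tmem26, AP-1 (TGANTCA) in Ifi209, and AP-1 beside 2 overlapping SOX matches (AACAAT and ACAATG) in Sprr2f. The windows of Cd34 and Ihh held no match. Over all windows whose start lay in an opened region, AP-1 matches stood in 9 of 58 (15.5%), in 3 of 30 in closed regions (10%) and in 1299 of all 21045 windows (6.17%). SOX matches (also ACAAAG) stood in 34.5% of opened, 26.7% of closed and 26.1% of all windows, and KLF matches (also GGGTGTG) in 22.4%, 20% and 16.1%. RUNX matches (TGTGGT) stood in 15.5%, 13.3% and 12.2%, TEAD matches in 10.3%, 16.7% and 11.6%, and LEF/TCF matches in 12.1%, 20% and 12.8%. FOX matches (TGTTTAC or TGTTTGC) stood in 7 of 58 opened (12.1%), 0 of 30 closed and 6.49% of all windows. GRHL matches (AACCNGTT or AACNGGTT) stood in 2 of 58 opened, 0 of 30 closed and 1.72% of all windows, and ETS matches (CCGGAAGT) in 0, 0 and 3.83%. The GLI motif GACCACCC was found in 0 of 58 opened and 0 of 30 closed windows, and in 140 of all 21045 (0.665%). All windows include those open in all 6 lists and those in no merged region. SOX matches stood in 18.1% of the former and 38.6% of the latter, AP-1 matches in 4.54% and 8.30%. Opened windows lay between these shares for SOX, RUNX, TEAD and LEF/TCF. They lay above both for AP-1, KLF, FOX and GRHL, and below both for ETS and GLI. These shares were not tested. A match is a string of letters and no evidence of binding, and its absence says only that these letters are not in the window. Median GC content was 56.2% in opened, 51.6% in closed and 55.6% in all windows.

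The 6 lists were of like size. WT lists held 69026, 78490 and 77072 merged intervals, and SmoM2-Sox9cKO lists 83110, 76592 and 74536, with no difference detected (exact permutation test, two-sided p = 0.6, where 3 against 3 cannot give less than 0.1). The covered sequence was 55.3 ± 3.14 Mb in WT and 55.5 ± 5.61 Mb in SmoM2-Sox9cKO (SD, n = 3). The Jaccard index of the merged regions held was 0.749 to 0.774 between WT lists, 0.722 to 0.751 between SmoM2-Sox9cKO lists and 0.609 to 0.652 between the groups. No source used here gives read numbers, and depth is therefore unknown. At 4 Y-linked genes, WT lists held 5, 0 and 0 intervals, SmoM2-Sox9cKO lists 8, 10 and 0, and SmoM2 lists 9, 9 and 9, so the makeup by sex may differ between libraries. The basal cell genes Krt5, Krt14 and Trp63 had open regions in or near them (within 100 kb) in all 6 lists. The start listed for Krt5 lay in a region open in all 6. The start listed for Krt14, which is inside the annotated gene, lay in no region.

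Of all merged regions, 47704 (43.1%) were open in all 6 lists and 54223 (49.0%) in other combinations of lists, whereas 4.85% were opened and 3.04% closed in SmoM2-Sox9cKO. These 2 shares describe the choice itself and are not tested. Just outside the thresholds, 5380 regions were in 2 SmoM2-Sox9cKO lists and no WT list, and 2704 in 3 SmoM2-Sox9cKO lists and 1 WT list. On the closed side, 4127 regions were in 2 WT lists and no SmoM2-Sox9cKO list, and 3188 in 3 WT lists and 1 SmoM2-Sox9cKO list. Without SmoM2-Sox9cKO list 3 the opened set would number 8522, and without WT list 1 or SmoM2-Sox9cKO list 1 the closed set would number 5707 or 5464, since fewer lists then have to hold the region or lack it.

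**Figure D1:**
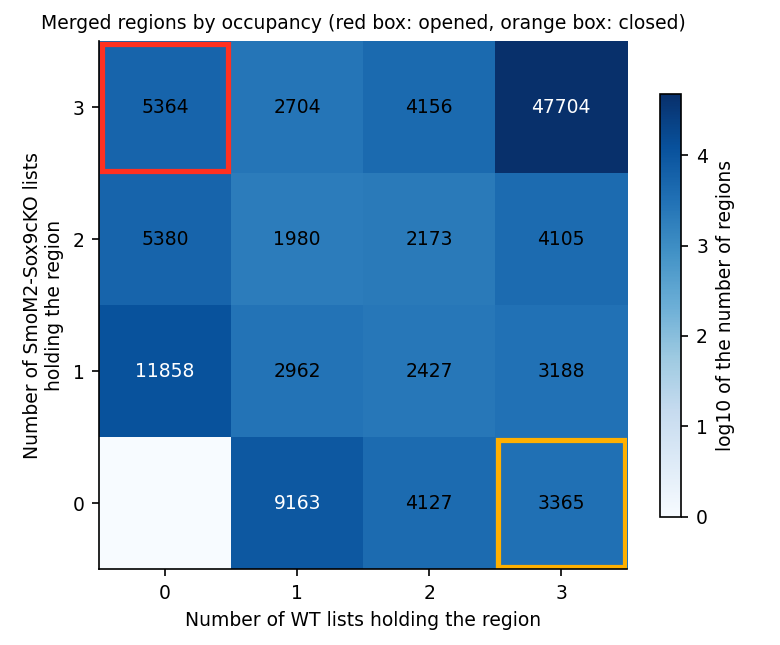
Number of merged regions by how many of the 3 WT lists (horizontal axis) and of the 3 SmoM2-Sox9cKO lists (vertical axis) hold them, colored on a log10 scale. The corner of regions in all 6 lists holds 47704, against 5364 opened (red box) and 3365 closed (orange box).

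Opened and closed regions seldom held a gene start, as did regions in other combinations of lists. A listed start lay inside 1.73% of opened and 1.69% of closed regions, against 22.3% of the regions open in all 6 lists. The share was 2.46% in other combinations and 10.9% over all regions. A further 1.62% of opened, 2.26% of closed and 2.14% of the regions open in all 6 had a start within 1 kb. Between 10 and 100 kb from a start lay 57.3% of opened, 54.8% of closed and 43.9% of the regions open in all 6, and 55.0% in other combinations. No start was listed on chromosome 18, whose regions count only in the totals. Gene bodies overlapped 51.2% of opened, 50.3% of closed and 63.2% of shared regions, while 15.0%, 13.8% and 7.05% lay over 100 kb from any protein-coding gene. Over all merged regions these shares were 57.3% and 9.36%. Median widths were 645 bp in opened, 648 bp in closed and 1075 bp in shared regions, 702 bp over all regions and 443 bp in those of none of these sets. By chromosome, opened regions made up between 4.34% (chromosome 8) and 5.50% (chromosome 13) of regions, and closed regions between 2.19% (chromosome 16) and 3.79% (chromosome 9).

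**Figure D2:**
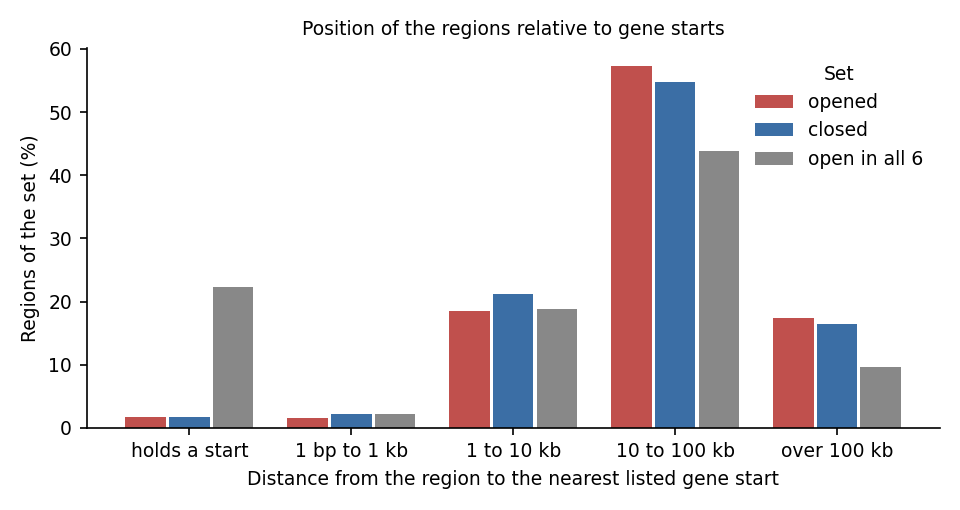
Share of the regions of each set (vertical axis, %) by distance to the nearest listed gene start (horizontal axis), for opened, closed and shared regions. Of the regions open in all 6 lists 22.3% hold a start, against 1.73% of opened and 1.69% of closed regions, and 57.3% of opened regions lie 10 to 100 kb from one. Regions of chromosome 18, which has no listed start, are in no bar but count in the totals.

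The peaks of both changing sets were weak ones within their libraries. In the authors' ranking by −log10 p, opened regions had median percentiles of 39.0, 41.5 and 30.2 in the 3 SmoM2-Sox9cKO lists, and closed regions 27.1, 32.5 and 31.1 in the 3 WT lists. Regions open in all 6 lists had median percentiles between 64.2 and 69.8. The authors' median fold enrichment was 4.70, 5.68 and 4.39 in opened regions and 4.09, 4.54 and 4.15 in closed ones. A region near the calling limit can be missed in a list by chance, and how much of either set this accounts for was not tested.

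SmoM2 libraries, which played no part in the choice, held most opened and few closed regions. Of the opened regions, 86.1%, 78.3% and 91.2% were overlapped in the 3 SmoM2 lists (85.2 ± 6.48%, SD, n = 3). Of the closed regions, 12.5%, 19.2% and 24.0% were overlapped (18.6 ± 5.75%, or 32.2% when regions were chosen without SmoM2-Sox9cKO list 1), and of all merged regions 65.1%, 64.2% and 72.1% (67.1 ± 4.29%). Each list thus held opened regions more often, and closed regions less often, than all merged regions, which include those open in all 6 lists. Of the regions in other combinations of lists, 39.5%, 37.3% and 49.8% were overlapped (42.2 ± 6.67%). All 3 SmoM2 lists held 3913 opened regions (72.9%, Wilson 95% interval 71.7 to 74.1%, counting error only), and none of them held 250 (4.66%). Of the closed regions, 2216 (65.9%) were in none of the SmoM2 lists and 190 (5.65%) were in all 3. SmoM2 and SmoM2-Sox9cKO cells shared the EpCAM-high gate, whose part in these shares was not tested.

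The 250 opened regions found in no SmoM2 list had a median width of 554 bp, against 681 bp for the 3913 found in all 3. The 190 closed regions that all 3 SmoM2 lists still held overlapped an embryonic list in 10% of cases. For the 2216 closed regions held by no SmoM2 list this share was 2.53%. Of all merged regions 80.8% were in no embryonic list, and of those in other combinations of lists 93.2%. At most 11.1% of the 190 and 6.90% of the 2216 lay within 1 kb of a listed start, with chromosome 18 counted in. No test was made between these subsets.

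Embryonic lists held few regions of either kind. In the 2 lists, 4.47% and 1.86% of opened, 3.21% and 1.13% of closed and 34.8% and 23.4% of the regions open in all 6 were overlapped. The shares were 18.4% and 11.4% over all merged regions, and 6.24% and 2.41% in other combinations of lists. Those lists were shorter, with 24902 and 14255 intervals, and at most 43.7% and 53.3% of their intervals lay within 1 kb of a listed start. These shares are upper limits, since they count in all intervals of chromosome 18, where no start is listed. Since few opened or closed regions were near a start, the small overlap cannot be told apart from the shortness and the position of the embryonic peaks.

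**Figure D3:**
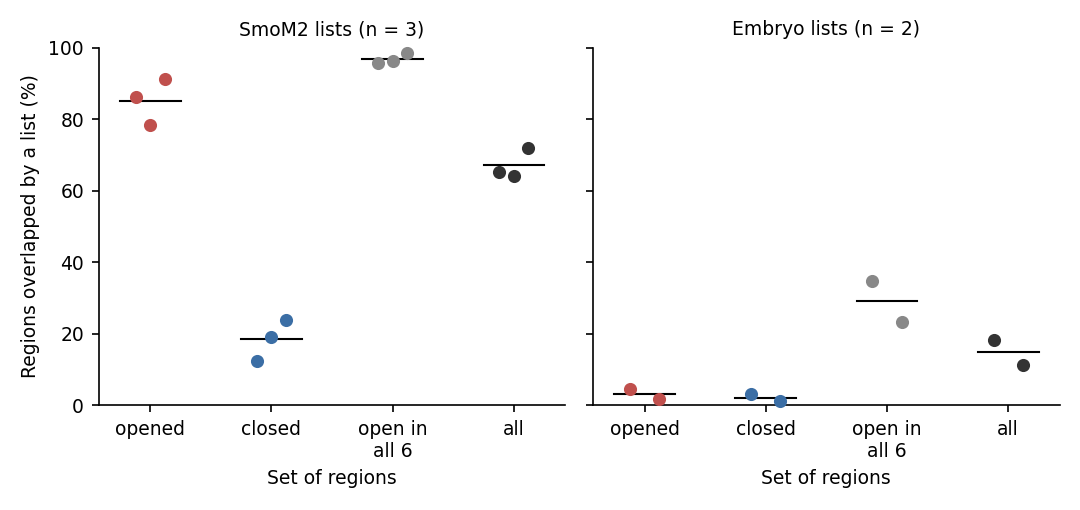
Share of opened, closed, shared and all merged regions (vertical axis, %) overlapped by each SmoM2 list (left, 3 points per set) and each Embryo list (right, 2 points per set), with horizontal lines at the means. Opened regions sit at 78.3% to 91.2% in SmoM2 lists and closed regions at 12.5% to 24.0%, on either side of all regions at 64.2% to 72.1%.

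The choice was repeated with 1 WT and 1 SmoM2-Sox9cKO list left out, in all 9 pairs, and checked in the lists left out. Regions chosen as opened on 2 against 2 lists were found in the SmoM2-Sox9cKO list left out in 76.8% of cases on average (64.2 to 84.5%), and in the WT list left out in 13.7% (6.72 to 19.4%). Regions chosen as closed were found in the WT list left out in 74.0% (60.3 to 81.8%) and in the SmoM2-Sox9cKO list left out in 20.6% (10.2 to 38.2%). In each of the 9 pairs, the list left out of the group that held the regions showed more of them than the list left out of the other group.

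Merging the 9 lists of the WT, SmoM2 and SmoM2-Sox9cKO groups gave 120433 regions. In these the comparison could be set beside that of SmoM2 with intact Sox9. In SmoM2-Sox9cKO against WT, 5321 of these regions were opened and 3356 closed. In SmoM2 against WT, 8636 were opened and 3888 closed. Both comparisons used the same WT lists, so their likeness is not independent and their difference was not tested.

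The opened region with the best median rank was 268 bp wide and lay on chromosome 13 (13:120321371-120321638, GRCm38), 3.11 kb from Tcstv3, a gene of the early embryo in a cluster of near-identical copies. Its −log10 p, by the authors, was 714, 657 and 733 in the 3 SmoM2-Sox9cKO lists, and 2 SmoM2 lists held it. Reads of such copies can be shared between them, so the position is uncertain. The next 4 opened regions were each held by all 3 SmoM2 lists. The first of them (15:3136437-3137531) lay 133 kb from Selenop, a plasma selenoprotein gene, with −log10 p of 67.5, 124 and 75.8. The others had Slc10a2, Zeb2 and Cwc22 as nearest genes, 2 of them over 1 Mb away. Among closed regions the best median rank belonged to one inside Dicer1, the gene of the microRNA-processing nuclease (12:104718814-104719791), with −log10 p of 23.4, 134 and 76.3 in the WT lists. It was followed by regions nearest to Ube2j1, Maf, Iftap and Fmo9. These 5 closed regions were held by 1, 3, 2, 1 and 2 SmoM2 lists in that order, and the region inside Ube2j1, which encodes a ubiquitin-conjugating enzyme, was the one in all 3. Since the opened and closed regions were chosen by occupancy, these strengths are descriptions.

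The number of open regions per gene locus was then compared, where a locus is the set of merged regions nearest to one protein-coding gene body and within 100 kb of it. A change is in the number of open regions, not in the height of any peak and not in expression. Of 15542 loci tested with limma, 512 (3.29%) had more open regions in SmoM2-Sox9cKO and 477 (3.07%) had fewer, at a Benjamini-Hochberg adjusted p under 0.05. The scaled counts of the 2 groups did not overlap at 1604 loci with higher (10.3%) and 1787 with lower (11.5%) values. At 195 of the 989 called loci the group means differed by 1 region or less, and at 387 by over 3 regions. Where the 3 lists of a group hold 1 number, their spread comes from the totals alone, and such small steps can pass. The counts depended on single libraries: without SmoM2-Sox9cKO list 2 there were 179 higher and 177 lower loci, without WT list 2 279 and 292, without WT list 3 265 and 297, and without SmoM2-Sox9cKO list 3 274 and 405. Opened regions lay at 2980 loci and closed regions at 2162, with both kinds at 643 and 3 or more opened regions at 344.

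Among the 10 loci with the largest called rise, 8 held no region in any WT list, so no fold is given for them. These 8 passed the filter only through the SmoM2-Sox9cKO lists, so their p-values are descriptions and no independent support. At Wdr72, which encodes a protein needed for tooth enamel (chromosome 9), the WT lists held 0, 0 and 0 regions and the SmoM2-Sox9cKO lists 11, 9 and 7 (adjusted p = 2.08e-05, limma). At Tmem26, a transmembrane protein gene on chromosome 10, the counts were 0, 0 and 0 against 7, 9 and 6 (adjusted p = 4.42e-05, limma). The groups did not overlap at either locus, and both held 6 opened regions, all present in all 3 SmoM2 lists.

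At Kit, the receptor of stem cell factor on chromosome 5, WT lists held 0, 0 and 0 regions and SmoM2-Sox9cKO lists 4, 5 and 4 (adjusted p = 2.8e-05, limma), while SmoM2 lists held 9, 6 and 9. One of its 4 opened regions (5:75574555-75575918) held the Kit start site shown above, and that region was present in all 3 SmoM2 and both embryonic lists. Ifi209, an interferon-inducible gene on chromosome 1, held 0, 0 and 0 regions in WT and 4, 6 and 5 in SmoM2-Sox9cKO (adjusted p = 0.000131, limma). All 4 of its opened regions were in all 3 SmoM2 lists, among them the one over its start (1:173630245-173631191).

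Long genes of neuronal adhesion made up other large rises. At Ptprd, a receptor-type phosphatase gene of 2271 kb on chromosome 4, WT lists held 1, 2 and 1 regions and SmoM2-Sox9cKO lists 24, 25 and 19 (log2 change 3.63, SE 0.20, adjusted p = 0.000194, limma). Its 14 opened regions were the most of any locus, and all 14 were in all 3 SmoM2 lists. Clstn2, which encodes a synaptic calsyntenin, held 2, 2 and 1 regions against 18, 22 and 12 (log2 change 2.97, SE 0.29, adjusted p = 0.00316, limma). Both loci were apart between the groups, and SmoM2 lists stood as high, at 28, 23 and 30 regions for Ptprd and 32, 21 and 31 for Clstn2.

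The remaining loci of the 10 were Nox3 (an NADPH oxidase gene), Rtl1 (an imprinted gene derived from a retrotransposon), Glp2r (a gut hormone receptor gene) and Prss39 (a serine protease gene). They held no WT region and between 3 and 7 SmoM2-Sox9cKO regions per list. Loci with many opened regions after Ptprd included Ctnna2 (12), Kcnma1 (10) and Clstn2 (9), whose genes are 1098, 713 and 589 kb long. Ctnna2, a neuronal catenin gene, held 3, 3 and 3 regions in WT and 21, 27 and 15 in SmoM2-Sox9cKO (log2 change 2.52, SE 0.19, adjusted p = 0.00112, limma). Kcnma1, a potassium channel gene, held 3, 5 and 5 against 27, 27 and 14 (log2 change 2.17, SE 0.25, adjusted p = 0.00633, limma). No adjustment for gene length was made.

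The largest falls were at genes that had a handful of regions in WT. Those at 0 in all SmoM2-Sox9cKO lists passed the filter only through the WT lists, so their p-values too are descriptions. Oprm1, the mu opioid receptor gene on chromosome 10, held 5, 5 and 6 regions in WT and 0, 0 and 0 in SmoM2-Sox9cKO (adjusted p = 8.6e-06, limma), and 0 in all 3 SmoM2 lists. Cdh19, a cadherin gene on chromosome 1, held 5, 5 and 4 against 0, 0 and 0 (adjusted p = 2.59e-05, limma), again with 0 in all 3 SmoM2 lists. At both, every closed region (5 and 4) was missing from the SmoM2 lists too.

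Sprr2f and Adamts18 differed from these in the SmoM2 lists. Sprr2f, a cornified envelope gene of squamous differentiation on chromosome 3, held 4, 4 and 4 regions in WT and 0, 0 and 0 in SmoM2-Sox9cKO (adjusted p = 8.6e-06, limma), against 1, 3 and 2 in SmoM2. Its closed region over the start (3:92364804-92365335) was in 1 SmoM2 list. Adamts18, a secreted metalloprotease gene on chromosome 8, held 5, 6 and 5 regions in WT and 1, 0 and 0 in SmoM2-Sox9cKO (log2 change -3.08, SE 0.38, adjusted p = 0.0081, limma), but 5, 5 and 5 in SmoM2. The closed region over its start (8:113848268-113849272) was in all 3 SmoM2 lists. The difference between SmoM2 and SmoM2-Sox9cKO at these loci was not tested here.

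The other large falls were at Rftn1 (a lipid raft protein gene), Dcdc5, Fmo9 (a flavin monooxygenase gene), Pnliprp2 (a pancreatic lipase-related gene), Samt3 and Sox11, a developmental Sox factor. Sox11 held 2, 6 and 5 regions in WT and 0, 1 and 0 in SmoM2-Sox9cKO (log2 change -2.70, SE 0.50, adjusted p = 0.023, limma). That call was lost without WT list 2 or 3 or SmoM2-Sox9cKO list 1 or 3 (adjusted p up to 0.0649, limma). The other 5 held at most 1 region in any SmoM2-Sox9cKO list and kept their call in each fit without 1 library in which they were tested.

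The loci with the most closed regions were Rora (12), Plcb1 (8), Alk (7), Ctnnd2 (7) and Macrod2 (7). Rora, a nuclear receptor gene on chromosome 9, fell from 42, 51 and 49 regions to 29, 21 and 23 (log2 change -1.02, SE 0.09, adjusted p = 0.00203, limma), and 11 of its 12 closed regions were in no SmoM2 list. Ctnnd2, a neuronal delta-catenin gene, fell from 15, 20 and 19 to 6, 7 and 6 (log2 change -1.49, SE 0.11, adjusted p = 0.00109, limma). Plcb1, a phospholipase C gene, held opened regions as well (4) and fell by 0.26 on the log2 scale (SE 0.05, adjusted p = 0.0361, limma), a call lost in each fit without 1 library (adjusted p up to 0.101, limma). The call at Macrod2 was lost without WT list 1 (adjusted p = 0.0608, limma), and that at Alk, a receptor tyrosine kinase gene, in all such fits except the one without SmoM2-Sox9cKO list 1 (adjusted p up to 0.0829, limma).

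**Figure D4:**
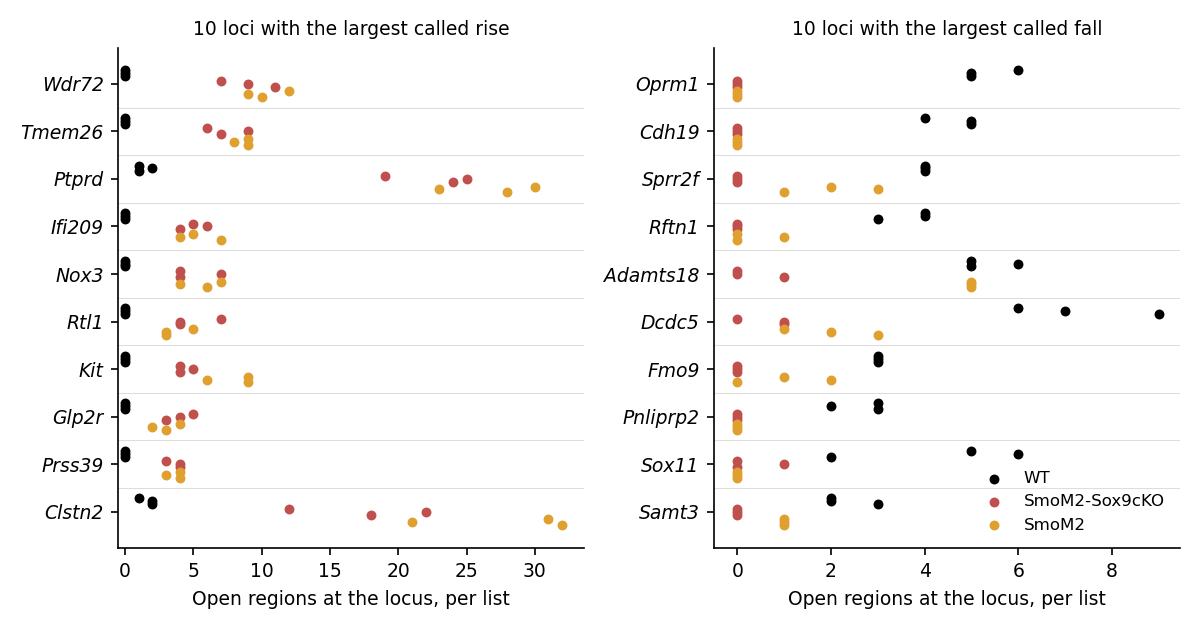
Open regions per list (horizontal axis) at the 10 loci with the largest called rise (left) and the 10 with the largest called fall (right), 1 point for each of the 3 WT, 3 SmoM2-Sox9cKO and 3 SmoM2 lists. At Kit the WT lists hold 0 regions and the SmoM2-Sox9cKO lists 4 or 5, and at Adamts18 the SmoM2 lists hold 5 each while the SmoM2-Sox9cKO lists hold at most 1.

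Of 35 Hedgehog pathway members and targets tested, 0 rose and 4 fell, against 3.29% and 3.07% of all loci (median log2 change -0.025, against -0.064 over all loci). Of their 362 regions 25 were opened (6.91%, against 4.55% over all loci) and 12 closed (3.31%, against 2.89%). At Ptch1, the Hedgehog receptor and the best known target gene of the pathway (13:63508328-63573460), WT lists held 8, 11 and 10 regions and SmoM2-Sox9cKO lists 13, 15 and 14. The groups did not overlap, but the test missed the threshold (log2 change 0.46, SE 0.12, adjusted p = 0.0701, limma). SmoM2 lists held 13, 12 and 15 regions there.

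At Ptch1 regions switched in both directions around the gene's upstream end. A closed region of 2045 bp (13:63563310-63565354) lay in the gene body, 381 bp from a listed start, and was in no SmoM2 list. An opened region (13:63576007-63577044) lay 2.55 kb beyond the annotated gene and was in all 3 SmoM2 lists. Of the 3 further opened regions, one lay 98.8 kb from the gene (13:63672272-63672871), with −log10 p of 33.8, 47.8 and 27.7 by the authors, and all 3 SmoM2 lists held it.

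Gli2, the main activator of the pathway, held 18, 21 and 22 regions in WT and 28, 21 and 26 in SmoM2-Sox9cKO, with overlap (log2 change 0.22, SE 0.10, adjusted p = 0.272, limma). It had 3 opened regions inside the gene, 2 of them in all 3 SmoM2 lists. Gli1 (2, 2 and 3 against 2, 3 and 3), Smo (5, 4 and 6 against 6, 6 and 4) and Hhip, a ligand-binding inhibitor (2, 3 and 1 against 2, 2 and 1), held no opened or closed region and overlapped between groups. The region over the start of Ihh (1:74951034-74951825) was opened but was in no SmoM2 list and in 1 embryonic list. It was weak, with −log10 p of 4.70 in SmoM2-Sox9cKO list 1, and the locus of Ihh was not called (0, 1 and 1 against 2, 1 and 2 regions, adjusted p = 0.24, limma).

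The 4 Hedgehog genes that fell were Shh (a ligand), Cdon (a co-receptor), and Mycn and Nr2f2 (transcription factors). Shh fell from 9, 10 and 11 to 8, 7 and 6 regions (log2 change -0.55, SE 0.10, adjusted p = 0.0208, limma), and Nr2f2 from 11, 15 and 13 to 10, 9 and 8 (log2 change -0.57, SE 0.10, adjusted p = 0.0195, limma). Cdon fell by 0.43 on the log2 scale (SE 0.10) and Mycn from 2 to 1 region in each list. These calls were not firm. Cdon lost its call in each fit without 1 library (adjusted p up to 0.126, limma), Shh in all but the one without SmoM2-Sox9cKO list 1 (up to 0.0823), Nr2f2 without WT list 2 or 3 or SmoM2-Sox9cKO list 2 or 3 (up to 0.0609) and Mycn without SmoM2-Sox9cKO list 2 (0.0513).

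Sox9, the deleted gene, held 11, 7 and 9 regions in WT and 10, 12 and 9 in SmoM2-Sox9cKO, with overlap (log2 change 0.14, SE 0.21, adjusted p = 0.705, limma). A region over its start (11:112781281-112783193) was open in all 6 lists, in all 3 SmoM2 lists and in both embryonic lists. No list held a region over the rest of the gene body (11:112782210-112787757), so the lists give no check of the deletion. One region downstream was opened (11:112833768-112834562), 46.0 kb from the gene, with −log10 p of 12.9, 27.6 and 25.9, and all 3 SmoM2 lists held it. Of 18 Sox genes tested 0 rose and 1, Sox11, fell, against 3.29% and 3.07% of all loci.

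Wnt and hair follicle genes held rises at Wif1, Lgr5 and Znrf3, which encode a secreted inhibitor, a stem cell receptor and a receptor-directed ubiquitin ligase that restrains the pathway. Of 46 Wnt genes tested 3 rose and 2 fell, against 3.29% and 3.07% of all loci, and 39 of their 545 regions were opened (7.16%, against 4.55%). Lgr5 (chromosome 10) held 4, 5 and 4 regions in WT and 17, 14 and 9 in SmoM2-Sox9cKO, with no overlap (log2 change 1.41, SE 0.19, adjusted p = 0.0117, limma), and all 5 of its opened regions were in all 3 SmoM2 lists. Wif1 held 1, 1 and 1 against 8, 10 and 4 (log2 change 2.23, SE 0.29, adjusted p = 0.00942, limma). Znrf3 held 12, 14 and 13 against 20, 18 and 19 (log2 change 0.47, SE 0.07, adjusted p = 0.0137, limma).

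The Wnt receptors Ror1 and Fzd8 fell. Ror1 held 17, 17 and 17 regions in WT and 13, 10 and 9 in SmoM2-Sox9cKO (log2 change -0.73, SE 0.11, adjusted p = 0.0132, limma), and its 3 closed regions were in no SmoM2 list. Fzd8 fell from 2, 3 and 2 regions to 1 in each list, a call lost without SmoM2-Sox9cKO list 2 (adjusted p = 0.0513, limma).

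Of 35 hair follicle and basal cell carcinoma genes tested, 3 rose (Lgr5, Cd34 and Runx1) and 4 fell (Shh, Bmp4, Msx2 and Gata3), against 3.29% and 3.07% of all loci. Of their 510 regions 33 were opened (6.47%, against 4.55%). Cd34, a sialomucin of hair follicle bulge, endothelial and blood progenitor cells, held 3, 3 and 4 regions in WT and 8, 8 and 7 in SmoM2-Sox9cKO (log2 change 1.03, SE 0.13, adjusted p = 0.00923, limma). Its 3 opened regions, including the one over its start (1:194938665-194939537), were in all 3 SmoM2 lists. Msx2, a homeobox gene of BMP signaling, fell from 8, 9 and 9 to 6, 5 and 5 (log2 change -0.72, SE 0.09, adjusted p = 0.00887, limma), a call lost with a 20 kb locus, with stricter intervals and with lists of equal length (adjusted p up to 0.34, limma). Gata3, a transcription factor of differentiating epithelium, lost its call in each fit without 1 library (adjusted p up to 0.127, limma).

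BMP and TGF-beta ligand genes moved in both directions. Of 41 genes tested 2 rose (Bmp5 and Bmp6) and 3 fell (Tgfb2, Ltbp1 and Bmp4), against 3.29% and 3.07% of all loci. Of their 527 regions 22 were opened (4.17%, against 4.55%) and 19 closed (3.61%, against 2.89%). Tgfb2 (chromosome 1) fell from 14, 15 and 14 to 8, 7 and 6 regions (log2 change -1.06, SE 0.10, adjusted p = 0.00244, limma), with 6 closed regions of which 4 were in no SmoM2 list. Ltbp1, which encodes a matrix protein that stores latent TGF-beta, fell from 29, 34 and 32 to 21, 19 and 18 (log2 change -0.76, SE 0.06, adjusted p = 0.000898, limma). Bmp4 fell from 14, 17 and 15 to 10, 9 and 11 (log2 change -0.66, SE 0.11), and Bmp5 rose from 5, 5 and 6 to 9, 10 and 9 (0.69, SE 0.12). The call at Bmp4 was lost without WT list 1 or 2 or SmoM2-Sox9cKO list 2 (adjusted p up to 0.0594, limma), that at Bmp5 without WT list 1 or 2 or SmoM2-Sox9cKO list 2 or 3 (up to 0.0607), and that at Bmp6 in all such fits except the one without SmoM2-Sox9cKO list 1 (up to 0.118).

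Of 25 basal squamous genes tested 0 passed in either direction, against 3.29% higher and 3.07% lower over all loci. At an unadjusted limma p under 0.05, 1 was higher and 3 were lower. Krt5 held 3, 4 and 2 regions against 4, 4 and 4, Krt14 4, 4 and 5 against 5, 5 and 6, Sox2 11, 12 and 12 against 13, 10 and 10, and Trp63, the master regulator of basal cells, 30, 33 and 28 against 37, 33 and 34. Groups overlapped at all 4. Of the 403 regions of the list 17 were opened (4.22%, against 4.55% over all loci) and 8 closed (1.99%, against 2.89%). Trp63 held 5 opened and 2 closed regions, among them an opened one inside the gene (16:25774670-25775217) that was in all 3 SmoM2 and both embryonic lists.

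Epcam, whose protein set the sorting gate, held 9, 10 and 9 regions in WT and 13, 13 and 15 in SmoM2-Sox9cKO, without overlap but short of the threshold (log2 change 0.46, SE 0.11, adjusted p = 0.0625, limma). None of its 3 opened regions was in all 3 SmoM2 lists. Of 37 squamous differentiation genes tested 2 rose, Krt6b (a keratin of suprabasal and wounded epithelium, 1 to 2 regions in each list) and Sprr2a1 (a cornified envelope gene, 3, 4 and 4 to 6, 6 and 6), and 0 fell. Over all loci 3.29% rose and 3.07% fell. Sprr2f was not in the squamous differentiation list. Both calls were lost without single libraries, Krt6b without WT list 2 or 3 or SmoM2-Sox9cKO list 2 or 3 (adjusted p up to 0.0823, limma) and Sprr2a1 in all fits except the one without SmoM2-Sox9cKO list 1 (up to 0.0948).

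Among columnar genes 15 of 170 regions were opened (8.82%, against 4.55% over all loci) and 3 closed (1.76%, against 2.89%). Of 27 tested, Lgr5 rose and Agr2, a mucous cell disulfide isomerase gene, fell from 3, 5 and 4 to 2, 2 and 2 regions, a call kept only without WT list 1 (adjusted p otherwise up to 0.068, limma). Summed over the list, WT lists held 85 to 101 and SmoM2-Sox9cKO lists 111 to 127 regions. Of 34 foregut endoderm genes tested 1 rose, the homeobox gene Hhex, from 1, 1 and 1 to 2, 3 and 2 regions, and that call was kept only without SmoM2-Sox9cKO list 1 (adjusted p otherwise up to 0.113, limma). In the foregut list 27 of 472 regions were opened (5.72%) and 4 closed (0.847%). Over all loci tested 3.29% rose and 3.07% fell.

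At mesenchymal transition factors 23 of 254 regions were opened (9.06%, against 4.55% over all loci) and 2 closed (0.787%, against 2.89%). Of 18 tested, 4 rose (Twist2, Runx1, Runx2 and Tcf4) and 1 fell (Twist1), against 3.29% and 3.07% of all loci. Twist2 (chromosome 1) held 0, 1 and 1 regions in WT and 5, 7 and 6 in SmoM2-Sox9cKO (log2 change 2.57, SE 0.40, adjusted p = 0.0145, limma). Runx1, a transcription factor of blood and hair follicle, rose from 19, 21 and 22 to 32, 32 and 31 (log2 change 0.54, SE 0.06, adjusted p = 0.007, limma), and Runx2, its bone relative, from 20, 20 and 21 to 35, 32 and 27 (log2 change 0.54, SE 0.08, adjusted p = 0.0143, limma). Twist1 fell from 3, 3 and 2 regions to 1 in each list, in the opposite direction to its paralog. Its call was lost without WT list 2 or SmoM2-Sox9cKO list 2 (adjusted p up to 0.0518, limma), and that of Tcf4 in all such fits except the one without SmoM2-Sox9cKO list 3 (up to 0.124).

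In the matrix list 24 of 313 regions were opened (7.67%, against 4.55% over all loci). Of 31 genes tested 4 rose (Itgb8, Col4a2, Col4a1 and Cdh2) and 2 fell (Fn1 and Mmp10), against 3.29% and 3.07% of all loci. Itgb8, an integrin subunit that activates TGF-beta, held 2, 3 and 3 regions in WT and 8, 9 and 10 in SmoM2-Sox9cKO (log2 change 1.53, SE 0.16, adjusted p = 0.00474, limma). Col4a2, a basement membrane collagen gene, held 3, 4 and 4 against 10, 9 and 8 (log2 change 1.13, SE 0.11, adjusted p = 0.00317, limma). Fn1, the fibronectin gene, fell from 2, 3 and 3 regions to 1 in each list (log2 change -1.12, SE 0.14, adjusted p = 0.00923, limma). Col4a1 and Cdh2 lost their calls in each fit without 1 library (adjusted p up to 0.102 and 0.143, limma), and Mmp10, a metalloprotease gene, without SmoM2-Sox9cKO list 2 (0.0513).

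Axon guidance and adhesion genes had the highest share of opened regions among the lists, 73 of 758 (9.63%), of which 63 were in all 3 SmoM2 lists, and 31 were closed (4.09%). Over all loci 4.55% were opened and 2.89% closed. Of 39 tested 5 rose (Ptprd, Ctnna2, Lrp1b, Epha7 and Cdh13) and 2 fell (Cdh19 and Nrp1), against 3.29% and 3.07% of all loci. Lrp1b, a large endocytic receptor gene, held 1, 1 and 1 regions in WT and 6, 5 and 5 in SmoM2-Sox9cKO (log2 change 1.89, SE 0.13, adjusted p = 0.000674, limma). Nrp1, a semaphorin and VEGF co-receptor gene, fell from 7, 8 and 7 to 2, 3 and 2 (log2 change -1.55, SE 0.18, adjusted p = 0.00592, limma), and 3 of its 4 closed regions were in no SmoM2 list.

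The counts of the remaining lists stand beside the 3.29% of all loci that rose and the 3.07% that fell. Of 36 receptor tyrosine kinase genes 1 (Kit) rose and 0 fell, of 36 cell cycle genes 0 rose and 2 (E2f7 and Mycn) fell, and of 22 AP-1 and stress genes 1 (Egr2) rose and 0 fell. E2f7, a repressor of cell cycle genes, fell from 7, 8 and 7 to 3, 4 and 3 regions (log2 change -1.10, SE 0.15, adjusted p = 0.0118, limma). Of 23 Notch genes and 24 housekeeping genes 0 passed (at an unadjusted limma p under 0.05, 1 higher and 3 lower Notch genes, and 1 and 1 housekeeping genes). The call of Egr2, an early response factor, was lost without SmoM2-Sox9cKO list 2 or 3 (adjusted p up to 0.057, limma). With a 20 kb locus the log2 change at Egr2 was -0.064, also the median over all loci in that fit.

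**Figure D5:**
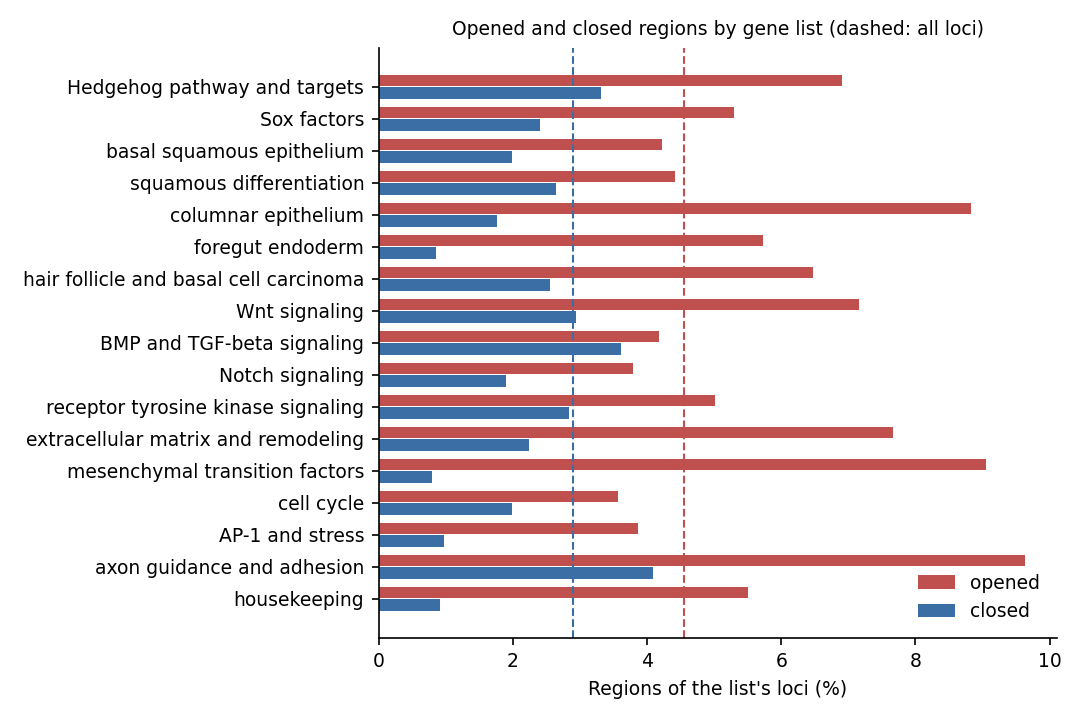
Share of the regions at the loci of each pathway or tissue list (horizontal axis, %) that were opened (red) or closed (blue), with dashed lines at 4.55% and 2.89% for all loci. Axon guidance (9.63%), mesenchymal transition (9.06%) and columnar genes (8.82%) have the longest red bars of the lists drawn, which leave out the markers of other cells, and no test of the lists was made.

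Markers of cells other than epithelium moved in a few places beside these changes, where 3.29% of all loci rose and 3.07% fell. Of 20 endothelial genes 2 (Pecam1 and Cdh5) rose and 1 (Esam) fell, and the summed regions of that list were 77 to 98 in WT and 102 to 104 in SmoM2-Sox9cKO, with no marker at 0 in all lists. Opened regions made up 9.42% of the regions of the endothelial, 8.70% of the melanocyte, 8.24% of the neural, 6.86% of the fibroblast, 4.76% of the immune and 1.33% of the muscle list, against 4.55% over all loci. With a 20 kb locus the log2 change at Cdh5 was -0.31. Of 12 fibroblast genes tested Twist2 rose and Twist1 and Dpt, a dermal matrix gene, fell, with sums of 40 to 52 and 50 to 57, and Col3a1 and Lum were at 0 in all 6 lists. Of 9 immune genes Runx3 rose, with sums of 19 to 24 and 27 to 34, and Ms4a1, Cd8a, Cd3g, Lyz2 and Adgre1 were at 0 in all 6. Of 9 neural genes Snap25, a synaptic protein gene, rose and Hand2, a neural crest and heart factor, fell, with sums of 35 to 49 and 40 to 48. Hand2 fell from 8, 9 and 11 regions to 2, 1 and 2 (log2 change -2.27, SE 0.22, adjusted p = 0.00317, limma), and Snap25 rose from 3, 5 and 5 to 14, 13 and 12 (log2 change 1.45, SE 0.15, adjusted p = 0.0041, limma). The part of such cells in the results was not tested.

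Of 7 melanocyte genes tested Kit alone rose, with sums of 22 to 30 in WT and 27 to 32 in SmoM2-Sox9cKO, and Tyr, a defining pigment gene, was at 0 in all 6 lists. Of 10 muscle genes Acta2, smooth muscle actin, fell from 5, 6 and 4 to 2, 2 and 3 regions, with sums of 46 to 50 and 40 to 59, and Myf5 and Tagln were at 0 in all 6. Of 9 Langerhans and dendritic genes and 3 erythroid genes 0 passed (at an unadjusted limma p under 0.05, 2 and 1 lower). Over all loci 3.29% rose and 3.07% fell. Among these markers, calls were lost in single left-out fits at Pecam1 (all 6, adjusted p up to 0.103, limma), Runx3 (all but the one without SmoM2-Sox9cKO list 1, up to 0.0844), Acta2 (WT list 1 or 2 or SmoM2-Sox9cKO list 1 or 2, up to 0.132), and Cdh5 and Esam (SmoM2-Sox9cKO list 2, 0.057 and 0.0513).

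With the presence of intervals at Y-linked genes as a covariate, an alternative added after the data were seen, 362 loci were higher and 426 lower, and 300 and 378 of them were among those called without it. Of the 74 named calls, 11 were lost with that covariate: Acta2, Alk, Bmp6, Cdh2, Col4a1, Gata3, Hhex, Krt6b, Pecam1, Plcb1 and Tcf4. Of the 74, 28 were kept in each alternative run, among them Wdr72, Tmem26, Ptprd, Ifi209, Kit, Clstn2, Ctnna2, Itgb8, Cd34, Runx1, Oprm1, Cdh19, Sprr2f, Tgfb2, Ltbp1, Nrp1 and Hand2. Some calls kept in each fit without 1 library were lost in another alternative. Without scaling by the library total this held for Ror1, Twist2, Dcdc5, Lgr5, Runx2, Adamts18, Kcnma1 and Rora (adjusted p up to 0.107, limma). With stricter intervals it held for Wif1, Col4a2, Znrf3 and Fn1 (up to 0.171), with lists of equal length for E2f7, Lrp1b and Dpt, and with a 20 kb locus for Epha7 (0.196).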

How the data were processed

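ATAC-seq was made from sorted esophageal cells with the Illumina transposase and sequenced as paired ends, per the labels' protocols. Reads were processed with Trimmomatic, Bowtie2, Picard, MACS2 and deepTools on GRCm38/mm10, per the submitters' processing notes, with versions not given in the sources used here. Each deposited list gives, per interval, a score, the fold enrichment over background, the −log10 p-value, the −log10 q-value and the summit position, all made by the authors with their peak caller. The score was not used. Peaks were deposited per library, and depth is unknown.

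Intervals repeated for several summits were joined, and lists were merged and assigned to the nearest of 21631 protein-coding genes of RefSeq GRCm38.p6. Starts came from 32851 RefSeq promoter windows, a table that is not complete and holds no start on chromosome 18. Coordinates are 1-based. Locus counts were tested with limma 3.58.1 (R 4.3.3, trend on, two-sided) on log2((regions + 0.5) / (library total + 1) × 100000), for loci with a mean of at least 1 region, using the 6 lists. SE is that of the log2 change. SmoM2 counts per locus came from the merge of 9 lists. The steps were tested on simulated data.

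The groups, the region rule and the gene lists were chosen with earlier results of these data known. Genes named were up to 10 per direction with the largest called change and non-overlapping groups (no predicted genes), up to 4 called per list, 11 fixed genes and, per direction, the 5 loci with the most such regions. Others that complete a count, and Ihh, were added after their values were seen. Regions named were the 5 best ranked per direction and those of the fixed genes. The other regions printed belong to named loci. Some results that these rules cover are left out of the text. Summit motifs and GC content were not analysed here, since no genome was used. Alternatives varied the pseudocount, filter, scaling, locus reach, interval threshold, list length, chromosomes, region definition, variance trend, replicate block, and libraries.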

Additional observations from a re-analysis of the deposited data

Results flagged for a closer look

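Intervals at 4 Y-linked genes, which the comparison does not use, numbered 8 in SmoM2-Sox9cKO list 1 and 10 in SmoM2-Sox9cKO list 2, above the 5, 0 and 0 of the WT lists, while SmoM2-Sox9cKO list 3 held 0. Both groups thus mix lists with and without such intervals.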

How the results depend on the processing

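Counts of regions were within 1.5 times the main values under stricter intervals, lists of equal length, summit windows, a required cover of 50%, autosomes only and the merge of 9 lists. With 2 of 3 lists sufficient, 10744 regions were opened and 7492 closed, and the mean share of opened regions in SmoM2 lists was 72.8%. Leaving out 1 library gave 5839 to 8522 opened and 3790 to 5707 closed regions, with mean shares in SmoM2 lists of 77.8% to 85.3% and 17.4% to 32.2%. For loci, covered base pairs gave 875 higher and 983 lower, and no scaling 426 and 283. Leaving out 1 library gave 179 to 457 higher and 177 to 607 lower loci. With a replicate block there were 967 higher and 1009 lower loci, but same-numbered libraries did not deviate together (correlations of -0.040, 0.067 and 0.016), so the numbers do not pair them. Why these counts moved was not tested. With a 20 kb locus the change at Cdh5 was -0.31, the reverse of the main sign. At Egr2 it was -0.064, which was also the median over all loci in that fit. Of the 74 named calls 46 were lost in at least 1 alternative, 28 of them without at least 1 library. How far peaks missed near the calling limit add to either count was not tested.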
